A study of Mus musculus with 2 samples.

Results

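Some cytosines of mouse blood DNA were well covered by reads in 1 of 2 libraries and missing from the list of the other. The set comprised every autosomal CpG cytosine with a coverage of 50 or more reads in the WT or the I-PpoI library that the other library did not list, matched by chromosome, base and strand; members were thus chosen by their coverage and listing. There were 8174 of them: 7482 listed in WT alone, which is 0.407% of the 1836377 autosomal cytosines with 50 or more reads in WT, and 692 listed in I-PpoI alone, which is 0.0447% of the 1547812 in I-PpoI. They belonged to 3670497 cytosines listed in either library, of which 2964247 were autosomal and shared by both. No cytosine under 10 reads was listed in either library, so a cytosine that is not listed had fewer than 10 counted reads and need not have had none. Because coverage and listing chose them, their counts, their coverage and the coverage around them are given as a description with no test.

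The study compared methylation in peripheral blood cells between a wild-type (WT) group and a group expressing I-PpoI, a homing endonuclease that cuts DNA at a long recognition sequence, in epithelial cells of the kidney's proximal tubule. Each group had 1 library, so no difference below has a replicate check. Strain, sex, age, the number of mice behind a library, the driver of I-PpoI and the time since its expression began were not stated in the labels. Whether the groups shared a genetic background was likewise not stated, and differences between libraries and between genotypes cannot be told apart.

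In reduced representation bisulfite sequencing, the enzyme MspI cuts at the letters CCGG whether or not the inner cytosine is methylated, and short fragments are kept and read from their ends. Cytosines are therefore seen only where flanking sites of the enzyme give a fragment of suitable length, and a change in the letters of such a site changes which fragments exist. Bisulfite converts unmethylated cytosine and leaves methylated cytosine as it is, and sequencing tells them apart. The ends left by MspI are filled in with new cytosine during library construction, so the level read at a cut site partly reports the added base. In blood cells, CpG-rich gene starts are mostly unmethylated, while CpGs inside and between genes are mostly methylated.

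The windows below show where runs of such cytosines lay relative to CCGG, and were the windows of gene starts with the most members listed in I-PpoI alone (Ywhaq and Gm46850), others from that library with few shared cytosines (St6gal2 and Nbas), and the window with the most members listed in WT alone (Gm2511). Sequences are RefSeq promoter windows of GRCm38.p6, from 250 bases before to 50 after the gene start, 5′ to 3′ on the gene's strand. Capitals mark CGs at which either strand was listed with 50 or more reads in 1 library alone. The windows are chr12:21417387-21417686 (minus strand) for Ywhaq, chr4:43381934-43382233 (minus strand) for Gm46850, which lies at Rusc2, chr17:55445132-55445431 (plus strand) for St6gal2, chr12:13268877-13269176 (plus strand) for Nbas and chr7:43518519-43518818 (minus strand) for Gm2511.
Ywhaq: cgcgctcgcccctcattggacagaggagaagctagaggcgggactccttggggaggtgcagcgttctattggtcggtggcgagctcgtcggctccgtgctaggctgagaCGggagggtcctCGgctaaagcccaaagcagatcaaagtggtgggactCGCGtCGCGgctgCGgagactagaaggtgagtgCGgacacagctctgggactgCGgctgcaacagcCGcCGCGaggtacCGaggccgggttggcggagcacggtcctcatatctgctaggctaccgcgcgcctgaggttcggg
Gm46850: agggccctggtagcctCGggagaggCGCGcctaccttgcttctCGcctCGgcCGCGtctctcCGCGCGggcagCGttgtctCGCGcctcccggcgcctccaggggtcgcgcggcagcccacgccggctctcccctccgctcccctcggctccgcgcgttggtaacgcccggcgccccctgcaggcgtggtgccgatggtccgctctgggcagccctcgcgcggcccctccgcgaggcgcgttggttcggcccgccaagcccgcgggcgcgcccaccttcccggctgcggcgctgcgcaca
St6gal2: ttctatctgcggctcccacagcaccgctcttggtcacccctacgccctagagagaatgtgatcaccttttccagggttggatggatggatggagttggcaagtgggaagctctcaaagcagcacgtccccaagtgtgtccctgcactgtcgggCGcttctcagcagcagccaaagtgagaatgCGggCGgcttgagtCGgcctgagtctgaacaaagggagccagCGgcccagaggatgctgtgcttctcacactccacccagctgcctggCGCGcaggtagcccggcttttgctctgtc
Nbas: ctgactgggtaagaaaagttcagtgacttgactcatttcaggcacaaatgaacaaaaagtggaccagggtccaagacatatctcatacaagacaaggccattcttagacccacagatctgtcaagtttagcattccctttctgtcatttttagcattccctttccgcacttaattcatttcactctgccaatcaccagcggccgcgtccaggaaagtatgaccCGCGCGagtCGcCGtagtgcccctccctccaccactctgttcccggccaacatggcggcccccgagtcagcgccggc
Gm2511: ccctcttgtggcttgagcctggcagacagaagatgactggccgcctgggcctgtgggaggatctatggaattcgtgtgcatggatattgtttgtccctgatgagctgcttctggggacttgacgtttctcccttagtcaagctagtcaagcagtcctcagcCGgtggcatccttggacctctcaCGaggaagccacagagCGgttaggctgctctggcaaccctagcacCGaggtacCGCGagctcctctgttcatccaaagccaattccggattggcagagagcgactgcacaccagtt
The letters also settled the build of the positions: 99.86% of the 439867 listed cytosines compared with these windows fell on a CG, against at most 12.3% when the windows were shifted by 1 or 2 bases. In the Ywhaq window 26 members at 13 CGs stopped short of the CCGG that begins 9 bases before the gene start. In the Gm46850 window another 26 members at 13 CGs filled the stretch upstream of the CCGG that begins 161 bases before the gene start, and none lay downstream of it.

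WT was the deeper of the 2 libraries, and the cytosines listed in WT alone were the more frequent group. Autosomal cytosines numbered 3474049 in WT (median coverage 54 reads) and 3060989 in I-PpoI (50 reads). At the shared cytosines the medians were 66 and 53 reads, and at those above 80% in WT they were 46 and 29. The gene ends of the leukocyte genes Coro1a and Laptm5, which act in the actin cortex and in lysosomes, were at 3.95% and 1.67% in WT. In I-PpoI they were at 3.21% and 0%. The gene ends of the proximal tubule genes Slc5a2 and Cubn were at 96.9% or above and 84.4% or above. Rac2 and Arhgdib, expressed in leukocytes, were at 45.4% or above and 84.1% or above at their richer ends. Lrp2, a receptor of the proximal tubule, was at 5.04% and 4.73%, Slc34a1 at 52.5% and 37.4%, and Miox at 93.1% and 91.9%. Neither Ptprc nor Cd53 had a shared cytosine.

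Cytosines just inside the list of the other library were plentiful for WT and few for I-PpoI. Among cytosines with 50 or more reads in WT, 2796 had 10 reads in I-PpoI, 1916 had 11, 3448 had 12 and 4134 had 14, beside 7482 that were not listed. Among cytosines with 50 or more reads in I-PpoI, only 61 had 10 reads in WT, 37 had 11, 69 had 12 and 70 had 14, beside 692 that were not listed. The unlisted group pools every coverage under 10 reads, and it exceeded the count at 10 reads by a larger factor for I-PpoI than for WT. On the side of the listing library, 628 cytosines listed in WT alone had 49 reads, just outside the rule, and 626 had 50. In I-PpoI these numbers were 19 and 38, with even coverages more frequent than odd ones.

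**Figure D1:**
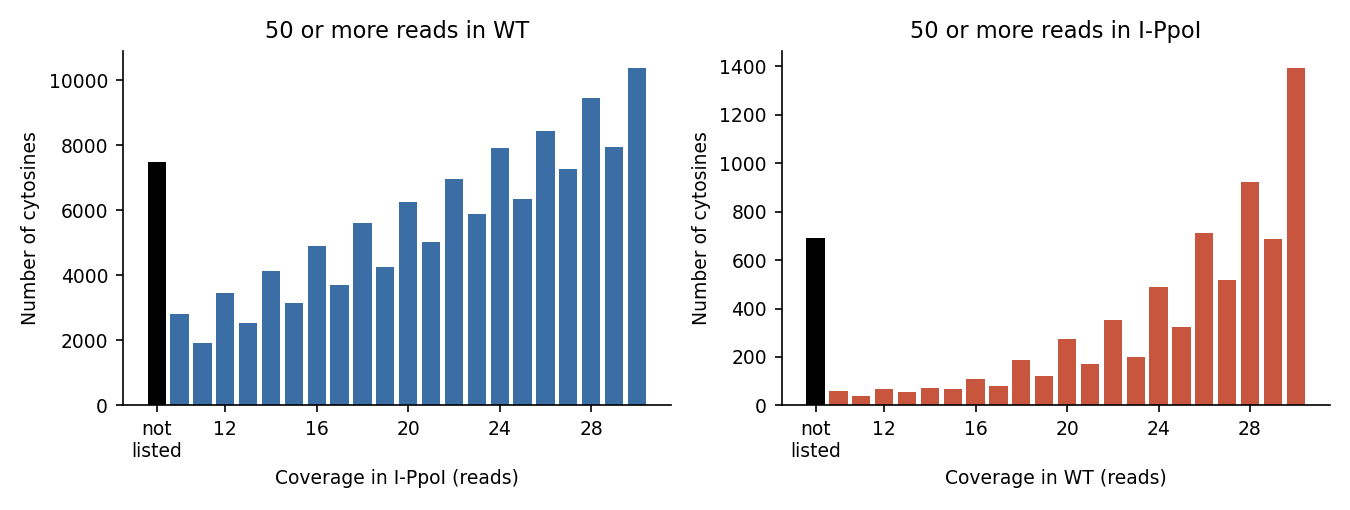
Number of autosomal cytosines (y axis) with 50 or more reads in WT (left) or I-PpoI (right) by their coverage in the other library in reads (x axis), with those not listed there in black. The 7482 unlisted cytosines on the left stand beside 2796 at 10 reads, and the 692 on the right beside 61 at 10 reads; the unlisted bar pools every coverage under 10.

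Coverage of the members lay near the lower limit of the rule. Those listed in WT alone had 50 to 228 reads with a median of 58, against a median of 97 for shared cytosines with 50 or more reads. Those listed in I-PpoI alone had 50 to 196 reads with a median of 60, against 94. The share of well covered cytosines that only WT listed fell with coverage, from 1.80% at 50 to under 60 reads (95% Wilson interval 1.75 to 1.86) to 0.448% at 60 to under 100 reads and 0.0158% at 100 to under 200 reads (0.0133 to 0.0188). For I-PpoI it was 0.165% (0.148 to 0.184), 0.0482% and 0.00725% (0.00549 to 0.00959). The excess on the WT side was therefore smaller in the highest of these classes than in the lowest. At 200 or more reads 2 of 40618 cytosines were listed in WT alone and 0 of 17276 in I-PpoI alone. These intervals treat each cytosine as independent, although neighbouring cytosines can lie on the same reads, so they may be too narrow even for counting error. The reads also carry no stated molecular identifiers. Strands were even in WT, with 3742 forward and 3740 reverse cytosines, and near even in I-PpoI, with 326 and 366.

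Methylation levels, which the rule did not use, differed between the directions. The cytosines listed in WT alone were methylated, with a mean level of 90.6% (SD 13.9 over 7482 cytosines) and a median of 94.7%, and 6525 of them (87.2%) were above 80%. Only 68 (0.909%) were under 20%. Shared cytosines with 50 or more reads in WT were mostly unmethylated: 64.4% were under 20% and their mean was 30.1%. Listing in WT alone was thus concentrated among methylated cytosines, at 1.42% of those above 80% against 0.445% of those between 20 and 80% and 0.00577% of those under 20%.

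The cytosines listed in I-PpoI alone fell into an unmethylated and a methylated part. Of the 692, 362 (52.3%) were under 20%, 245 (35.4%) above 80% and 85 between, with a mean of 40.7% (SD 43.1) and a median of 11.5%. Shared cytosines with 50 or more reads in I-PpoI were under 20% in 73.9% of cases and above 80% in 15.8%. Listing in I-PpoI alone varied little by level beside the range seen for WT: 0.0317% under 20%, 0.0532% between and 0.100% above 80%. In absolute number, unmethylated cytosines listed in 1 library alone were more frequent in I-PpoI, with 362, than in WT, with 68. At 100 or more reads, 7 of 134 cytosines listed in WT alone and 35 of 49 listed in I-PpoI alone were under 20%. These 49 all had under 200 reads and formed 13 runs, with 19 of them on chromosome 12. Of all I-PpoI cytosines with 100 to under 200 reads, 569235 of 675770 were under 20%, a larger share than among the 49. In WT it was 609140 of 834072.

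**Figure D2:**
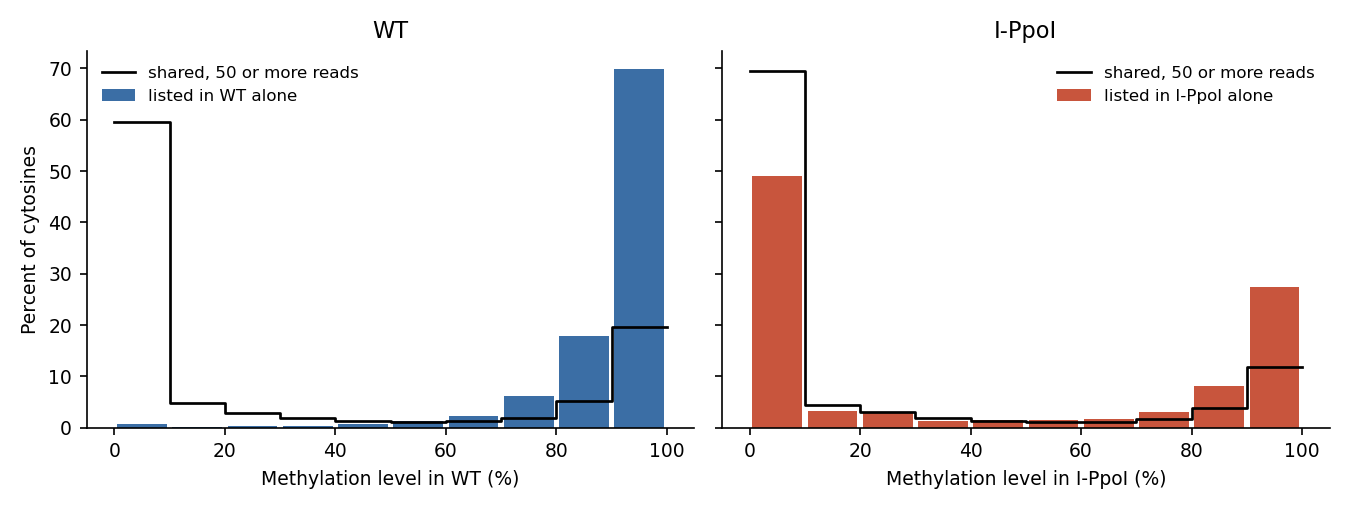
Percent of cytosines (y axis) by methylation level in percent (x axis) for cytosines listed in WT alone (left) and I-PpoI alone (right), as bars, with shared cytosines of 50 or more reads as a line. Cytosines listed in WT alone crowd above 80% (87.2% of them), whereas 52.3% of those listed in I-PpoI alone are under 20%.

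Depth also differed by level between the libraries. Shared cytosines above 80% in WT had a median of 46 reads there and 29 in I-PpoI, and those under 20% in WT had 82 and 78. The median ratio of I-PpoI to WT reads was 0.683 at the former and 0.925 at the latter. The lower relative depth of methylated cytosines in I-PpoI thus moved with the excess of methylated cytosines listed in WT alone, and its part in that excess was not tested.

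Along the genome the 2 directions were spread differently. Each autosome held 190 to 677 cytosines listed in WT alone, and the share of its well covered cytosines ran from 0.328% on chromosome 11 to 0.622% on chromosome 12. Those listed in I-PpoI alone were concentrated: chromosomes 12, 4, 9, 8, 1, 2 and 15 held 136, 123, 95, 88, 60, 56 and 53 of them. These 7 chromosomes held 88.3% of the members with 41.5% of the well covered cytosines, and the other 12 autosomes held 81, with 2 to 17 each.

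In bins of 5 Mb the contrast was larger. Of 501 bins, 19 had no cytosine listed in WT alone and the median bin had 12, while 404 had none listed in I-PpoI alone. The 5 fullest bins held 4.80% of the members listed in WT alone and 28.8% of those listed in I-PpoI alone. For WT these bins were 15 to 20 Mb on chromosome 12 with 96, 150 to 155 Mb on chromosome 4 with 84, 115 to 120 Mb on chromosome 11 with 64, 25 to 30 Mb on chromosome 7 with 58 and 120 to 125 Mb on chromosome 5 with 57. For I-PpoI they were 20 to 25 Mb on chromosome 12 with 76, 145 to 150 Mb and 125 to 130 Mb on chromosome 4 with 32 each, 40 to 45 Mb on chromosome 4 with 31, and 15 to 20 Mb on chromosome 12 with 28. The bin from 35 to 40 Mb on chromosome 8 also held 28. The bin from 15 to 20 Mb on chromosome 12 was thus among the 5 fullest in both directions. Members often lay in runs with gaps of up to 100 bp, called clusters below, and are not independent. In the order given, the 5 fullest I-PpoI bins held 8, 9, 10, 3 and 11 clusters. Of the 31 members from 40 to 45 Mb on chromosome 4, 26 lay in 1 cluster.

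**Figure D3:**
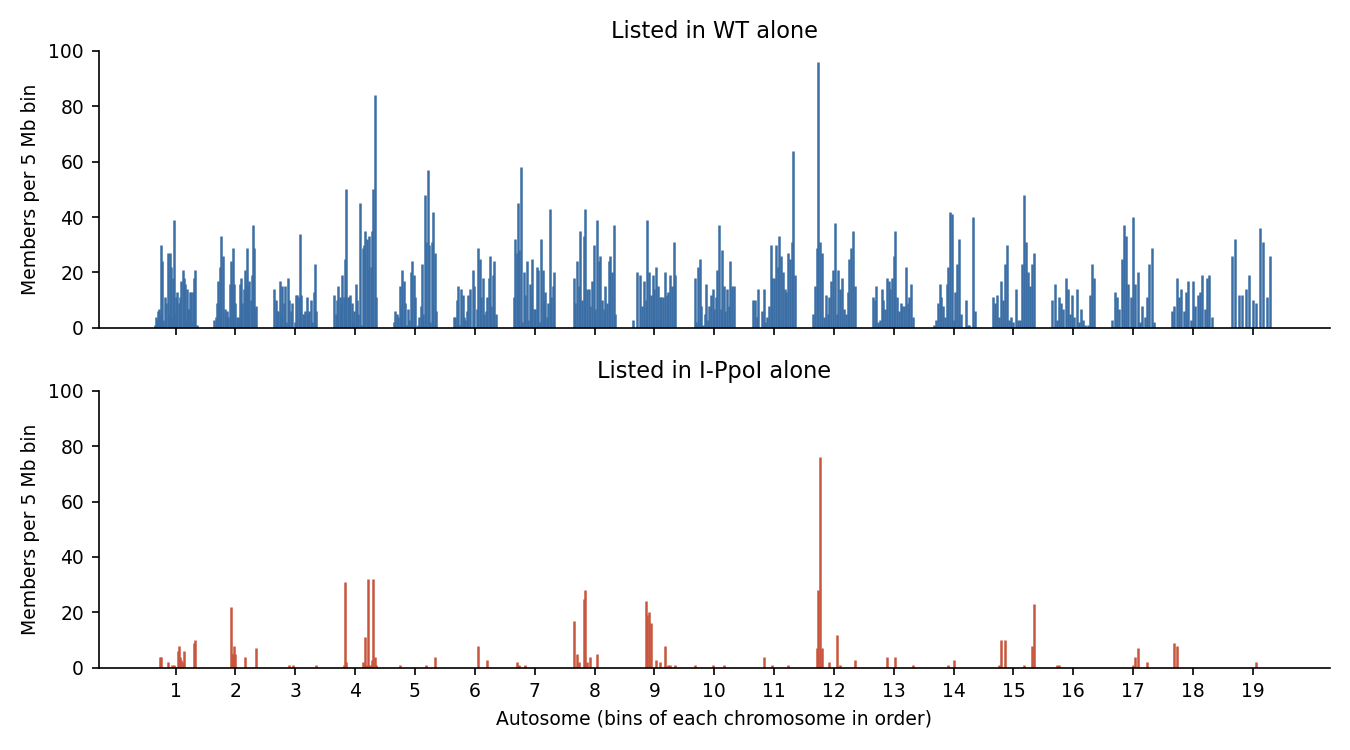
Members per 5 Mb bin (y axis) along the 19 autosomes in order (x axis), for cytosines listed in WT alone (top) and I-PpoI alone (bottom). The upper panel has members in all but 19 of 501 bins, and the lower panel has none in 404 bins and a peak of 76 on chromosome 12.

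Several of the fuller I-PpoI bins were neighbours on a chromosome. On chromosome 9 the 4 bins between 35 and 55 Mb held 24, 19, 20 and 16 members, of which 19, 16, 4 and 15 were under 20%. On chromosome 8 the bins from 30 and from 35 Mb held 25 and 28, and on chromosome 12 those from 15 and from 20 Mb held 28 and 76. As a share of well covered cytosines, the highest bins for I-PpoI were 20 to 25 Mb on chromosome 15 at 3.09% (10 members), 20 to 25 Mb on chromosome 12 at 2.20%, 85 to 90 Mb on chromosome 2 at 2.19% (8 members), 35 to 40 Mb on chromosome 8 at 1.52% and 110 to 115 Mb on chromosome 1 at 1.39% (6 members). For WT they were 60 to 65 Mb on chromosome 12 at 4.39% (38 members), 0 to 5 Mb on chromosome 3 at 3.65% (14 members), 20 to 25 Mb on chromosome 15 at 2.86% (17 members), 15 to 20 Mb on chromosome 12 at 2.28% and 85 to 90 Mb on chromosome 2 at 2.05% (16 members). The bins on chromosomes 15 and 2 stood among the highest in both directions. In the order given, the I-PpoI bins held 2, 8, 2, 10 and 1 clusters and the WT bins 6, 2, 5, 23 and 10. The I-PpoI shares on chromosomes 15, 2 and 1 thus rest on 1 or 2 clusters each.

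A set of 25 bins on 8 chromosomes with at least 3 clusters of members listed in I-PpoI alone, chosen after these counts were seen, held 478 (69.1%) of those members and 5.83% of the well covered cytosines. The same bins were richer in other differences between the libraries. Of their well covered cytosines, 0.624% were listed in WT alone, against 0.394% elsewhere. Methylation levels at shared cytosines were set against each other with Fisher's exact test (two-sided, on methylated and unmethylated reads, Benjamini-Hochberg adjustment), with calls at 25 points or more and an adjusted p under 0.01. This test compares 2 libraries, not 2 conditions, and reads spanning several cytosines are counted at each. By it 1613 of 173733 shared cytosines (0.928%) were called in these bins and 13148 of 2790514 (0.471%) elsewhere.

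Many members listed in WT alone lay right beside shared cytosines, and members listed in I-PpoI alone more often lay in stretches missing on both strands. The cytosine on the other strand of the same CpG, the partner, was shared for 3500 (46.8%) of the cytosines listed in WT alone, and itself listed in WT alone for 2622. For I-PpoI 135 (19.5%) had a shared partner and 419 (60.5%) a partner listed in I-PpoI alone. The nearest shared cytosine on either strand was at a median of 10 bp for WT and 59.5 bp for I-PpoI. It was farther than 100 bp for 2238 (29.9%) and 244 (35.3%), and farther than 1000 bp for 1421 and 163.

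**Figure D4:**
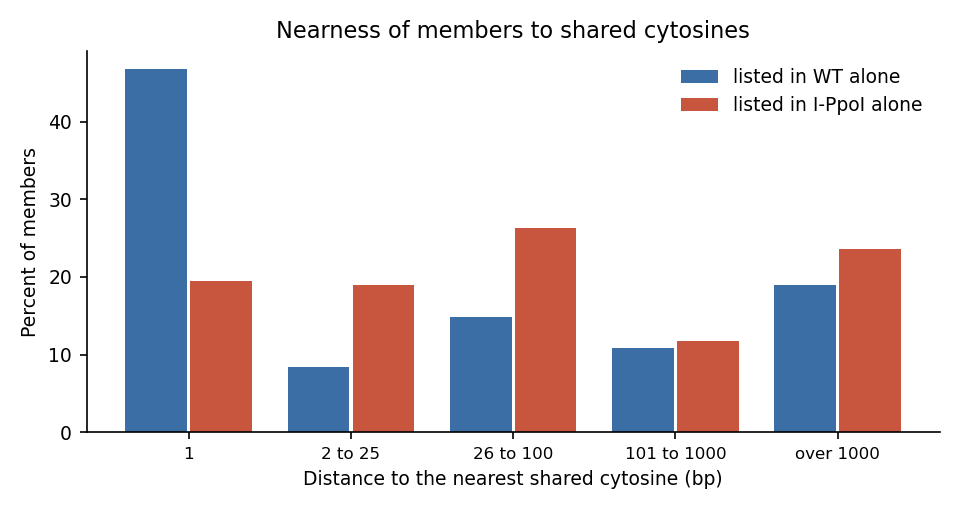
Percent of members (y axis) by distance to the nearest shared cytosine in bp (x axis) for cytosines listed in WT alone and in I-PpoI alone. A distance of 1 bp means that the other strand of the same CpG was shared, which held for 46.8% and 19.5% of members.

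The shared partners of cytosines listed in WT alone were thinly covered in I-PpoI. Their median coverage was 17 reads there, with an interquartile range of 13 to 24, against 51 reads in WT, and 37.4% had 10 to 14 reads. Levels of these partners were close, at a mean of 90.8% in WT and 87.5% in I-PpoI. In the other direction the shared partners had a median of 21 reads in WT and 54 in I-PpoI, with a mean level of 38.4% in I-PpoI.

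Shared cytosines within 100 bp of a member told the directions apart as well. Beside cytosines listed in WT alone, 11786 shared cytosines had a median coverage of 55 reads in WT and 17 in I-PpoI, and a median ratio of 0.365 against 0.846 over all shared cytosines. Beside cytosines listed in I-PpoI alone, 1857 shared cytosines had 70 and 75 reads and a median ratio of 1.09. Stretches around members listed in WT alone were thus thinly read in I-PpoI, while those around members listed in I-PpoI alone were read to a similar depth in both libraries.

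Levels of these neighbours were more often called lower in I-PpoI than levels of shared cytosines in general. Over all shared autosomal cytosines, Fisher's exact test called 0.439% lower and 0.0588% higher in I-PpoI. Beside cytosines listed in WT alone 205 were called lower (1.74%) and 7 higher (0.0594%). Beside cytosines listed in I-PpoI alone 53 were called lower (2.85%) and 10 higher (0.539%), so both directions exceeded their background there. The mean level of neighbours of WT members was 89.5% in WT and 86.2% in the other library, and among all shared cytosines above 80% in WT 0.822% were called lower. Of the 53 lower calls beside I-PpoI members, 43 lay within 100 bp of a member under 20%, as did 1391 of all 1857 shared neighbours of I-PpoI members. The 53 include CCGG sites at the edge of clusters, to which the limit given below for such sites applies.

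Clusters, in which members of a library followed each other within 100 bp, differed in size and level. There were 3558 clusters in WT, of which 1903 were lone cytosines, and 222 in I-PpoI, of which 92 were. Clusters of 5 or more cytosines numbered 313 in WT and 43 in I-PpoI and held 27.9% and 50.9% of the members. Their median spans were 96 and 79 bp and their longest 290 and 174 bp. In WT 293 of these 313 had a mean level above 80% and 3 under 20%. In I-PpoI 26 of 43 were under 20%, 10 above 80% and 7 between. All their members were on the same strand in 251 of 313 and 25 of 43, and no shared cytosine lay within 1000 bp of 75 and 6. Members on the same strand need not mean that the other strand was shared, because cytosines under the coverage minimum are no members. In the span of the Camsap3 cluster, I-PpoI listed 23 cytosines, of which 12 were members, all reverse, and 0 were shared. In that of the Oaf cluster it listed 19, of which 10 were members, all reverse, and 9 were shared.

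Among the 8 largest clusters listed in I-PpoI alone, 6 were unmethylated. The largest, at chr12:21417449-21417577, lay just upstream of Ywhaq, which encodes an adaptor protein that binds phosphorylated partners. It had 26 cytosines, 13 on each strand, with 53 to 101 reads and a mean level of 0.745% in I-PpoI, and WT listed none of them. The cluster at chr4:43382149-43382217, within Rusc2, a gene of vesicle transport, also had 26 cytosines, with 50 to 54 reads and a mean of 1.02%. Iah1, an esterase gene, overlapped 18 cytosines at chr12:21316645-21316743 with 77 to 88 reads and a mean of 0.542%. Dixdc1, a gene of the Wnt pathway, overlapped 13 at chr9:50698688-50698770 with 51 to 70 reads and a mean of 1.05%. Camsap3, whose product binds the minus ends of microtubules, overlapped 12 at chr8:3587713-3587787, all on the reverse strand, with 55 to 56 reads and a mean of 1.49%. Oaf overlapped 10 at chr9:43239354-43239448, all reverse, with 113 to 114 reads and a mean of 0.706%. In the Oaf cluster 9 shared cytosines lay inside the span, so 1 strand was listed by both libraries and the other by I-PpoI alone.

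The other 2 were methylated in part, with mean levels of 67.9% and 80.7% in the order below. Cpsf3, which encodes the nuclease of the pre-mRNA 3′ end cleavage complex, overlapped 11 cytosines at chr12:21309444-21309545 with 59 to 69 reads and levels of 26.7 to 96.8%. Between the gene models Gm20102 and Hspe1-ps1, 12 reverse cytosines at chr12:67950839-67951012 had 96 to 196 reads and levels from 0 to 98.97%. That cluster contained the 4 members of largest coverage in I-PpoI: chr12:67950919 with 196 reads at 98.0%, chr12:67950917 with 195 at 98.97%, chr12:67950921 with 193 at 96.9% and chr12:67950936 with 187 at 1.60%. Methylated and unmethylated cytosines thus stood close together on the same strand.

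From the Cpsf3 to the Ywhaq cluster, a stretch of 108134 bp held 3 of the 8 largest I-PpoI clusters, 55 members listed in I-PpoI alone and 0 listed in WT alone. It was not a stretch missing from WT as a whole, because both libraries listed 298 other cytosines in it, with a median ratio of I-PpoI to WT reads of 0.754. Of those 298, 5 were called lower in I-PpoI (1.68%, against 0.439% of all shared cytosines) and 0 higher. The 5 include the CCGG cytosine at chr12:21417443 beside the Ywhaq cluster, described below. Because I-PpoI clusters set the ends of the stretch, its 55 members against 0 are a description. At any coverage, 82 cytosines in it were listed in I-PpoI alone and 18 in WT alone.

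The largest clusters listed in WT alone that are described here were methylated, though the one with most members averaged 71.2%. The one with most members lay between the gene models Gm9257 and Gm40880 at chr12:19704155-19704444 and had 39 cytosines with 50 to 105 reads and levels of 42.0 to 100%. The cytosine 14 bp to its right, shared by both libraries, was at 94.5% of 109 reads in WT and 53.1% of 64 reads in I-PpoI (Fisher's exact test, Benjamini-Hochberg adjusted p = 3.8e-07). Among the nearest shared cytosines on each side of the largest WT clusters, it alone was called. The lowest adjusted p of the others was 0.66 by Fisher's exact test. Members were chosen because I-PpoI did not list them, so the p-value of the called cytosine is no check independent of that choice. Within Tcra, the T cell receptor alpha locus whose segments are rearranged in T cells, 15 cytosines at chr14:53059997-53060220 had 55 to 104 reads and a mean level of 95.8%, and the nearest shared cytosine was 46871 bp away. Clusters of 14 at chr12:64177067-64177189 and 13 at chr8:4854011-4854178, both between gene models, averaged 94.9% and 92.2%, with the nearest shared cytosine 5250 and 10500 bp away. Ptpn11, which encodes a tyrosine phosphatase of growth factor signalling, overlapped 12 at chr5:121134080-121134162 with 58 to 84 reads and a mean of 95.8%, 4227 bp from a shared cytosine. Around these 4 clusters no cytosine within 500 bp was listed in I-PpoI. Another 12 cytosines at chr6:143781206-143781382, all forward, averaged 94.9%, and 10 shared cytosines lay inside that span.

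Unmethylated clusters listed in WT alone were few. Those under 20% lay, among others, in Cep85, a centrosome gene, with 7 at 128 to 130 reads, in Raph1, whose product acts at the cell's leading edge, with 6 at 66 to 68 reads, in Ubxn8 with 4, and at chr8:20557758-20557870 with 4. Counting clusters of 3 or more under 20%, WT had 5 with 43 cytosines and I-PpoI 42 with 296.

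**Figure D5:**
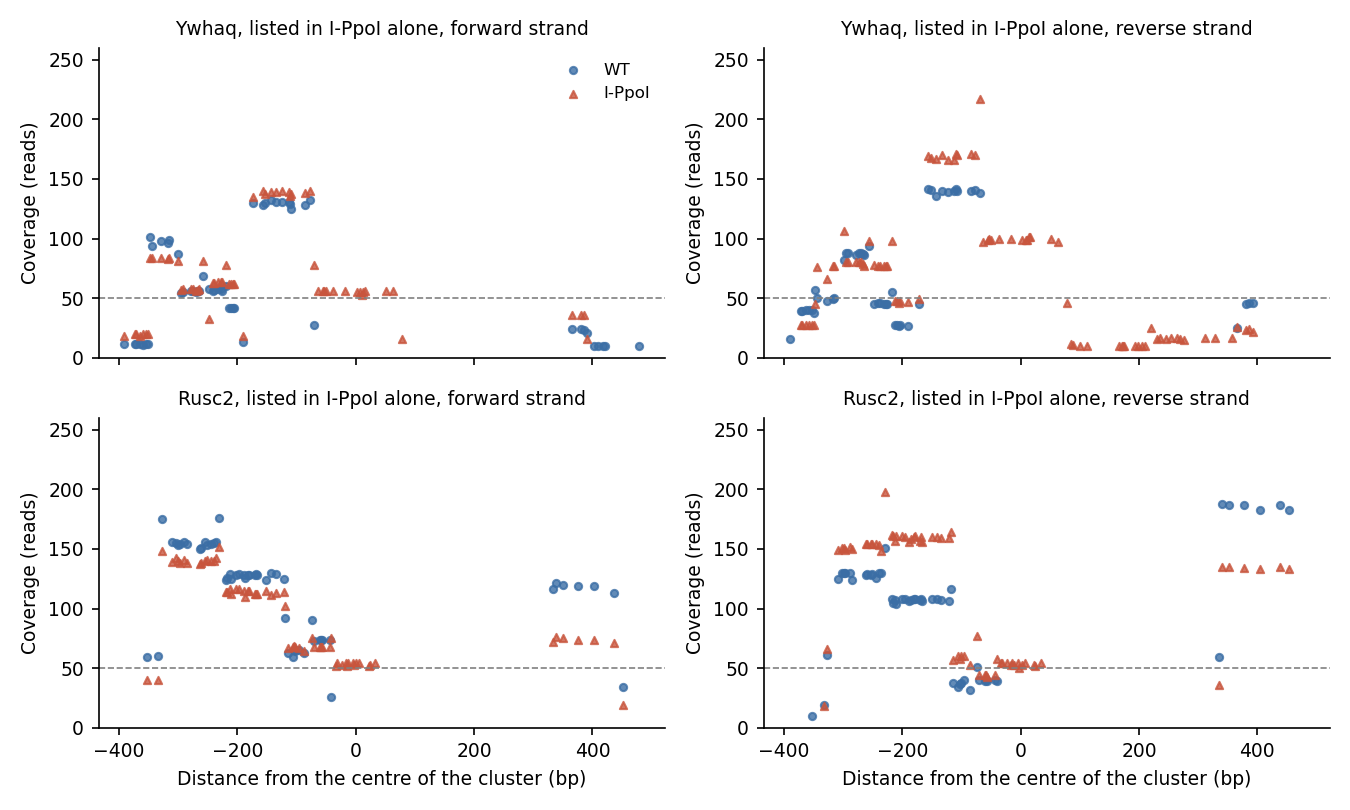
Coverage in reads (y axis) of every listed cytosine by distance in bp from the centre of the cluster (x axis), by strand, for the Ywhaq (top) and Rusc2 (bottom) clusters listed in I-PpoI alone, with the limit of 50 reads dashed. At Ywhaq and Rusc2 alike, both libraries are listed up to the left edge of the cluster, where WT points stop and I-PpoI goes on. The I-PpoI members have 53 to 56 reads on the forward and 97 to 101 on the reverse strand at Ywhaq. In Rusc2 they have 50 to 54 reads on both strands.

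At the CCGG bordering the Ywhaq cluster, both libraries were listed but read differently. The reverse cytosine at chr12:21417444 was at 1.45% of 138 reads in WT and 20.7% of 217 reads in I-PpoI (Fisher's exact test, adjusted p = 1.1e-05). The forward cytosine at chr12:21417443 was at 100% of 28 reads in WT and 65.4% of 78 in I-PpoI (Fisher's exact test, adjusted p = 0.0097). So at adjacent bases of the same CCGG the reverse cytosine was higher in I-PpoI and the forward one lower. The former differed by 19.3 points, which is under the 25 points of a call. Coverage of both cytosines was also higher in I-PpoI, where reads of the members' fragment may be counted at this CCGG. Members were chosen because WT did not list them, so these p-values are no check independent of that choice. What such reads added to the levels was not tested.

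The CCGG at the edge of the Rusc2 cluster showed the same arrangement, with the same limit on its p-values. The reverse cytosine at chr4:43382143 was at 0% of 39 reads in WT and 32.8% of 58 in I-PpoI (Fisher's exact test, adjusted p = 0.0031). The forward cytosine at chr4:43382142 was at 100% of 26 reads and 29.3% of 75 (Fisher's exact test, adjusted p = 7.7e-08). The other 3 CCGG sites of that window differed by at most 8.03 points, none called.

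Another 3 gene starts had a CCGG cytosine lower in I-PpoI beside a run of members. St6gal2, a sialyltransferase gene, went from 91.7% of 48 reads in WT to 42.6% of 101 in I-PpoI at chr17:55445417 (Fisher's exact test, adjusted p = 5.2e-06), beside 7 reverse members at a mean of 8.98%. Nbas, a gene of transport between Golgi and endoplasmic reticulum, went from 100% of 17 reads to 14.5% of 69 at chr12:13269144 (Fisher's exact test, adjusted p = 5.8e-08), beside 5 reverse members at 1.33%. Gata5, which encodes a transcription factor of heart and gut, went from 76.5% of 34 reads to 34.7% of 75 at chr2:180334793 (Fisher's exact test, adjusted p = 0.0087), beside 7 reverse members at 5.03%. At Cdh18, a cadherin gene with 7 forward members at 3.78%, the CCGG cytosine was at 28.1% of 32 reads in WT and 42.9% of 35 in I-PpoI, which was not called (Fisher's exact test, adjusted p = 0.92). These sites were looked up after the clusters were known. Coverage at the 3 lower sites was higher in I-PpoI, where reads of the members' fragments may be counted too. Their p-values are therefore no check independent of how members were chosen. Whether the lower levels go beyond those reads was not tested.

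Over all promoter windows, CCGG cytosines beside I-PpoI members were called more often than other CCGG cytosines. Shared cytosines at CCGG had mean levels of 35.3% in WT and 34.7% in I-PpoI, against 3.25% and 2.55% at other CGs of the windows. Within 100 bp of a member listed in I-PpoI alone, 10 of 67 CCGG cytosines were called lower in I-PpoI and 1 higher, against 118 and 25 of 54919 in all windows. Other CGs there gave 0 calls of 306 by Fisher's exact test. The 67 include the called sites of Ywhaq, Rusc2, St6gal2, Nbas and Gata5 above. All 67 lie near members chosen because WT did not list them, so the excess of calls is a description and no separate finding. Beside members listed in WT alone, 1 of 22 CCGG cytosines was called lower. The motif CCGG, which reads alike on both strands, was present in 53.5% of 31396 windows and in 99.7% of those with a well covered cytosine of either library. It was in 14 of 14 windows with a member listed in WT alone and 16 of 16 with a member listed in I-PpoI alone, so its presence did not set these windows apart. In the Gm2511 window, 6 WT members with 83 to 89 reads at a mean of 94.8% began at the CCGG upstream of the gene start, whose reverse cytosine was among them and whose forward cytosine had 39 reads in WT. The CCGG just after the gene start was listed by both libraries, its forward cytosine with 123 reads in WT against 33.

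The WT members of largest coverage were methylated and far from shared cytosines. These were chr12:79123513 with 228 reads at 86.8% and chr12:79123548 with 227 reads at 95.6%, between Gm8255 and Arg2, and chr14:53045162 at 97.0% and chr14:53045193 with 197 reads at 84.8%, both within Tcra. The nearest shared cytosines were 6910, 6875, 32036 and 32067 bp away.

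Strand partners methylated in the listing library and unmethylated in the other were rare. Of 3500 shared partners of WT members, 6 were at 50% or more in WT and at 5% or less in I-PpoI, and 0 showed the reverse. Among all shared cytosines 1068 of 2964247 (0.036%) met the former condition, a lower share. The sets differ in level: 3420 of the partners were at 50% or more in WT, while 1640278 of all shared cytosines were under 20% there. For I-PpoI there were 0 such cases in 135 partners, 55 of which were at 50% or more in I-PpoI, against a background of 0.00543%. The member with most reads, chr8:101089777, was at 72.1% of 172 reads in WT, and its partner was at 77.5% of 120 reads in WT and 0% of 70 in I-PpoI. In Lypd1, chr1:125908938 was at 65.7% of 108 reads with a partner at 74.6% of 63 and 0% of 17. In Raph1, chr1:60566436 was at 2.99% of 67 reads, while its partner was at 96.6% of 29 reads in WT and 0% of 100 in I-PpoI, so the strands of that CpG differed within WT. The fourth by coverage, chr1:108624846, was at 65.6% of 64 reads with a partner at 100% of 23 and 0% of 11.

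Members closely flanked by shared cytosines of their strand were also few, and most of those kept below lay in short runs. A member with shared cytosines of its own strand within 25 bp on both sides was found in 80 cases for WT (1.07%) and 31 for I-PpoI (4.48%). Requiring 30 or more reads at both neighbours in the library lacking the member left 5 and 14. The 5 in WT were 4 unmethylated cytosines of Ubxn8 with 59 or 60 reads, whose neighbours had 52 and 94 reads in I-PpoI, and chr3:108940486 in Henmt1 at 28.0% of 50 reads. The 14 in I-PpoI lay in Phc2, a Polycomb gene (4, with 55 to 71 reads), Zfand4 (3, with 92 or 93), Ppp1r3b, a gene of glycogen regulation (3, with 52), Tmco4, Necap2 and Gp1bb, a platelet receptor gene (1 each), and between gene models at chr1:126980481. At Phc2 the neighbours had 52 and 68 reads in WT and the partner of chr4:128727651 had 75, so the region was well read where the members were not listed. In the listing library the neighbours had 103 and 124 reads at Ubxn8 and 123 and 156 at Zfand4, more than the members. Members and neighbours thus need not lie on the same reads.

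By place, methylated WT members lay much as other methylated cytosines did, and unmethylated members of both libraries lay less often at gene ends than other unmethylated cytosines. Of members above 80% listed in WT alone, 9.89% lay within 1000 bp of a gene end, 54.8% farther inside a gene and 35.3% between genes, against 10.6%, 50.3% and 39.1% of all well covered WT cytosines above 80%. Of members under 20% listed in I-PpoI alone, 63.8% lay at gene ends, 20.4% inside and 15.7% between genes, against 74.6%, 21.6% and 3.83% of well covered I-PpoI cytosines under 20%. Of the 68 WT members under 20%, 20.6% lay at gene ends, 61.8% inside and 17.6% between genes, against 74.6%, 21.5% and 3.88% of well covered WT cytosines under 20%. In both libraries the share between genes was thus higher among unmethylated members, and members of 1 cluster share their place, so these shares are given with no test.

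Of all genes with a well covered cytosine in or within 1000 bp of them, 2069 of 27447 (7.54%) had a member listed in WT alone and 167 of 25151 (0.664%) a member listed in I-PpoI alone. Gene families known to vary between mouse strains were counted beside these shares. Olfactory receptors (Olfr) had 6 of 93, vomeronasal receptors (Vmn) 1 of 87 and zinc finger genes (Zfp) 24 of 369 with a WT member. Skint genes, which act in the selection of skin T cells, had 5 of 8, and clustered protocadherins (Pcdh) had 12 of 58, but the Pcdh genes overlap, and Pcdha1, Pcdha10 and Pcdha11 held the same cytosine at 100% of 55 reads. The Prame family had 1 of 8, Sirpb 1 of 3, Nlrp 1 of 16 and Ighv 1 of 6. The families H2- and Klr had 0 of 31 and 0 of 14. Ugt and Ccl had 0 of 10 each, Cyp2 0 of 9, Speer 0 of 7 and Igkv 0 of 5. Defa, Mup and Cyp3 had 0 of 1 each. At a share of 7.54% over all genes, families this small can hold few. Gene models named Gm had 395 of 8205 for WT and 35 of 6794 for I-PpoI. In I-PpoI 1 of 361 Zfp genes had members, and the families other than Zfp and Gm had 0.

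The WT members named from these families were mostly methylated. Vmn2r69 had 11 of 16 well covered cytosines listed in WT alone, between chr7:85416567-85416676, with 50 to 84 reads at a mean of 93.4%. Olfr183 had 4 at 95.0%, Olfr284 had 3 at 94.9% and Olfr30 had 3 at 67.0%. Skint6 had 5 at 86.2%, Skint8 had 3 at 89.3% and Skint3 had 1 at 84.4%. Zfp688 had 7 at 96.9%, Zfp748 had 6 at 79.3% and Zfp362 had 5 at 96.3%, and Zfp691 was the gene listed in I-PpoI alone, with 6 at 94.2%. Pramel13 had 3 at 94.5%, Ighv1-10, a variable segment of the antibody heavy chain, had 4 at 90.1%, Sirpb1a had 2 at 91.1% and Nlrp4f 1 at 96.1%. Among gene models, Gm12892, Gm40607 and Gm42226 each had 11 WT members, at 92.2%, 98.9% and 99.1%. For I-PpoI, Gm4419 and Gm46850 had the 26 members each of the Ywhaq and Rusc2 clusters, and Gm39337 had 15 at 2.58%.

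Over all genes with a well covered cytosine, 7.54% had a WT member and 0.664% an I-PpoI one, so lists of this size can hold few. Of the neutrophil, T cell, B cell and monocyte lists, 7, 13, 9 and 6 genes had a well covered WT cytosine and 7, 13, 8 and 5 an I-PpoI one, and 0 had a member of either library. Among loci used in engineered mice or whose promoters drive proximal tubule lines, 1 of 7 had a WT member and 0 of 7 an I-PpoI one. That was Ggt1, a brush border enzyme of the proximal tubule, at chr10:75573296 with 50 reads at 96.0%. Among imprinted genes, 1 of 21 had a WT member and 0 of 21 an I-PpoI one: Dlk1 at chr12:109462759, with 54 reads at 72.2%.

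Even coverages were more frequent than odd ones in both libraries. They made up 54.3% of autosomal cytosines in WT and 56.1% in I-PpoI, 54.5% of the cytosines listed in WT alone and 59.7% of those listed in I-PpoI alone. Where coverage was even and the cytosine partly methylated, the count of methylated reads was even as well in 78.4% of shared WT cytosines with 50 or more reads and 81.1% of WT members, and in 80.2% and 90.0% of those in I-PpoI. Whether both mates of a read pair were counted at the same cytosine was not tested.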

How the data were processed

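Per the labels' protocols, libraries were made from blood DNA cut with MspI, with the Zymo-Seq RRBS kit, and the submitters' processing notes name methylKit without a version. The aligner, trimming, duplicate removal and build were not stated there. The columns, per the file headers, show that for each CpG cytosine and strand the authors gave a count of reads (coverage) and the percent of reads with C and with T. The deposited percent times the count was whole, within 1e-06, at 100% of cytosines, which gave the methylated reads.

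Libraries were joined by chromosome, base and strand with Python 3.11.15, pandas 2.3.3 and scipy 1.17.1. Cytosines with 50 or more reads in 1 library and not listed in the other were taken on 19 autosomes. Clusters joined such cytosines at gaps of up to 100 bp, and bins were 5 Mb long. Shares carry 95% Wilson intervals, which treat cytosines as independent. Fisher's exact test ran on all 2964247 shared autosomal cytosines with Benjamini-Hochberg adjustment (called at adjusted p under 0.01 and 25 points), and was tested on simulated data. Genes came from a RefSeq table of GRCm38.p6. Named in each library were the 8 largest clusters (results of some of them are not reported here), the 5 bins with most members and the 5 with the largest share (of 200 or more well covered cytosines), the 4 members of largest coverage, the 4 of largest coverage with an unmethylated partner, and up to 3 genes per list. Promoter windows, low clusters and closely flanked members were named after their values were seen. List symbols were found for 13 of 13 neutrophil, 15 of 15 T cell, 10 of 10 B cell, 8 of 8 monocyte, 8 of 9 engineered-locus and 21 of 22 imprinted genes. The members and lists were chosen with earlier results of these data known. Alternatives varied the minimum and cap of coverage, strand, distances, bins, chromosomes and thresholds. No genome was used, so CCGG sites were read from promoter windows alone.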

Additional observations from a re-analysis of the deposited data

Results flagged for a closer look

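The sex chromosomes, which the rule left out, also held cytosines with 50 or more reads in 1 library alone. On the X chromosome 171 of 23569 well covered WT cytosines (0.726%, exact 95% interval 0.621 to 0.842) were not listed in I-PpoI, and 11 of 16756 I-PpoI cytosines (0.0656%, 0.0328 to 0.117) were not listed in WT. The X share for WT was above the 0.407% of the autosomes. The exact intervals, here and for Y, treat cytosines as independent and may be too narrow.

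The Y chromosome had the largest shares of any chromosome in both directions. In WT 165 of 5622 well covered cytosines (2.93%, exact 95% interval 2.51 to 3.41) were not listed in I-PpoI, with a median of 226 reads and a mean level of 84.2%. In I-PpoI 31 of 3525 (0.879%, 0.598 to 1.25) were not listed in WT, with a median of 54 reads and a mean level of 82.9%. These cytosines were flagged because they lie outside the autosomes and exceed the share that a count of 0 allows, which was 0.0534% for Y in WT. The autosomal share of 0.407% in WT is above that value too, so passing it does not set the Y chromosome apart. The mitochondrial genome gave 0 of 44 and 0 of 38.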

How the results depend on the processing

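The number listed in WT alone was 7482 and became 48347 (2.01% of well covered cytosines) with a minimum of 30 reads, 134 (0.0153%) with 100, 13182 (0.975%) with both strands of a CpG summed, 3742 on the forward and 3740 on the reverse strand. For I-PpoI, 692 became 2665 (0.130%), 49 (0.00707%), 326 on the forward and 366 on the reverse strand, and 1084 (0.0621%) with the minimum scaled by depth. Its share with strands summed was 0.0728%. The mean level in WT was 90.5% over pooled reads, 87.4% with 30 reads, 84.1% with 100 and 90.7% without chromosome 12, an alternative chosen after seeing the data. In I-PpoI it was 39.3%, 47.9%, 28.3% and 42.4%. Isolated members were 0.561% (within 15 bp) and 2.25% (40 bp) in WT and 6.65% (40 bp) in I-PpoI. Members without a shared cytosine nearby were 38.4% (50 bp) and 24.1% (200 bp) in WT and 53.5% and 29.9% in I-PpoI. The 5 fullest bins of 1 Mb held 186 WT members. Unmethylated partners numbered 2 in WT at a limit of 80%, and 1 in I-PpoI at a limit of 10%. Called neighbours in either direction went from 1.80% to 2.35% in WT with 20 reads in both libraries, where the background was 0.555%, and from 3.39% to 4.87% in I-PpoI within 50 bp. The other 33 values moved by less than their interval or by less than 1.5 times. No paired analysis was possible because each group had 1 library, and for the same reason no library could be left out. At 50 reads a cytosine missing elsewhere is well separated from the limit of 10 reads in its own library, but the lists cannot tell 0 from 9 reads in the other.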
